A study of Mus musculus with 8 samples.

Results

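The genes described here are those with which a cell shows peptides to T cells. They were taken from the rows of the deposited gene count table by symbol: every symbol that begins with H2-, the mouse name for the major histocompatibility complex (MHC), and 20 further genes for the proteasome, peptide transport, peptide loading, class II processing, transcriptional control and costimulation. Of 32531 rows, 64 met the rule. Class I held 43 of them, class II 16 and the costimulatory or checkpoint ligands 4, and 1 symbol, H2-Ke6, names an enzyme gene inside the MHC that belongs to neither class. RNA was sequenced from whole pancreatic islets of 8 mice on a mixed background of C57BL/6J, 129X1/SvJ and BALB/c. All 8 carried RIP-Cre, a Cre recombinase driven by an insulin promoter and therefore directed to β cells, and Rosa26-rtTA, a doxycycline-dependent transactivator, and all 8 drank doxycycline (Dox) for 8 weeks. The 4 controls lacked the tetO_NICD transgene and the 4 β-tetO-NICD mice carried it, so that in their β cells Dox turned on NICD, the intracellular domain of Notch1 that signals once it is cut from the receptor. The age of the mice at islet isolation was not given in the sources used here.

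Class I molecules pair a heavy chain with the light chain β2-microglobulin and stand on nearly all nucleated cells. The proteasome cuts cytosolic proteins, the Tap1 and Tap2 transporter carries the peptides into the endoplasmic reticulum, and tapasin holds an empty class I molecule there until a peptide fits. Class II molecules stand mainly on dendritic cells, macrophages and B cells: the invariant chain Cd74 guards their groove on the way to endosomes, cathepsin S trims it, and H2-DM swaps its remnant for a peptide under the restraint of H2-O. Interferon γ raises both sets of genes, through the activators Nlrc5 for class I and Ciita for class II. In islets, class I is of interest because cytotoxic T cells recognise β cells through it in autoimmune diabetes, while class II is normally found on resident macrophages and other leukocytes.

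Each library held between 21701223 and 26413146 counts, and levels are given as CPM, counts scaled to the normalized size of the library. The smallest level set apart from no signal, 3 counts, was at most 0.151 CPM. Notch1, whose intracellular part the transgene carries, lay between 41.6 and 64.9 CPM in controls and between 573 and 1321 CPM in β-tetO-NICD islets, and its target Hes1 at 6.00 to 8.501 against 31.6 to 55.8 CPM. Libraries also differed in a way the groups do not fully share. Relative to the other libraries, long transcripts read higher in controls 1, 2 and 4 and β-tetO-NICD 1 (Spearman correlation of level with transcript length across genes, 0.418 to 0.497) and lower in control 3 and β-tetO-NICD 2, 4 and 5 (-0.174 to -0.521). Eif2s3y, a Y-linked gene, was read 1300 to 1527 times in β-tetO-NICD 5 and controls 2 and 4 and at most 1 time in the remaining 5 libraries. The study describes male mice for gene expression. A fit on the 5 libraries with at most 1 Eif2s3y count, chosen after seeing the data, called 0 members of either class in edgeR, with 9 of class I and 7 of class II at an unadjusted p under 0.05, all higher, beside 12.8% of all genes tested in that fit. Because whole islets were used, fewer cells of a type and less RNA per cell cannot be told apart in any of these values.

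Where antigen presentation genes changed, they rose. Of the 44 members with enough counts to test, 17 were higher in β-tetO-NICD islets and 0 were lower at an adjusted p under 0.05 (quasi-likelihood test of edgeR, p adjusted over all tested genes after Benjamini and Hochberg), and across all 15082 tested genes 6.76% were called, 4.19% as higher and 2.57% as lower. An unadjusted p under 0.05 was found for 33 of the 44 members, beside 31.6% of all tested genes, and of these 33 Erap1 and H2-T24 had negative estimates (-0.45 and -0.96 on the log2 scale). Class II gave 8 higher of 12 tested, and class I gave 9 higher of 28. Of the 8, H2-Oa met the filter of 10 counts in 4 libraries only through the β-tetO-NICD group, and with 10 counts asked of every library H2-Oa and H2-DMb2 were not tested and the other 15 called members passed. The median log2 fold change was 1.26 for class II and 0.78 for class I, beside 0.00075 over all tested genes. The difference between the classes was not tested. In 23 of the 44 members every β-tetO-NICD library lay above every control, a pattern found in 8.22% of all tested genes, and no member showed the reverse, which 7.92% of all tested genes did. Leaving out 1 library at a time gave between 1 and 23 class I calls, with 2 without control 1, 3 without control 2, 1 without control 4, 23 without β-tetO-NICD 1 (20 higher and 3 lower), 1 without β-tetO-NICD 2 and 3 without β-tetO-NICD 4. For class II it gave between 2 and 9, with 2 without control 1, 3 without control 2, 5 without control 4, 2 without β-tetO-NICD 2, 2 without β-tetO-NICD 4 and 4 without β-tetO-NICD 5.

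**Figure D1:**
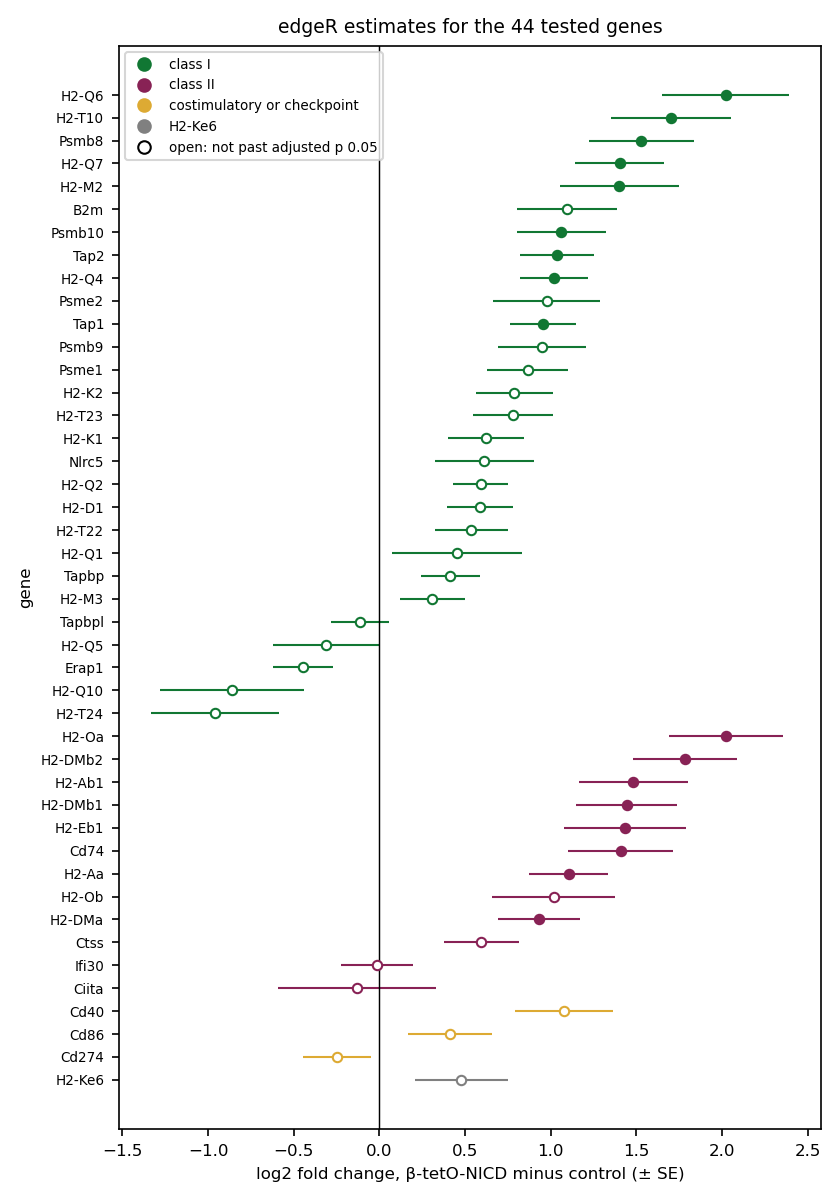
Estimated log2 fold change (β-tetO-NICD minus control, 4 libraries each) of each of the 44 tested members, with bars of 1 SE on either side, coloured by class. Filled points, 17 in number, passed an adjusted p of 0.05, and all of them lie right of 0, between 0.93 (H2-DMa) and 2.03 (H2-Oa).

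Most of these genes share a neighbourhood. By GENCODE M21 (GRCm38), 49 of the 64 members lie on chromosome 17, all between Tapbp and H2-M2 (chr17:33915899-37483552), and 15 lie elsewhere. Of the 30 tested members on chromosome 17, 15 were called, and of the 14 tested members elsewhere, 2 were called (Psmb10 and Cd74). Of the other genes of the same interval, which the rule does not take, 4 of 88 tested were called, all higher (4.55%), with a median log2 fold change of 0.21. These were Prrt1, Slc44a4, Ddah2 and Ltb, the last encoding lymphotoxin β, a cytokine of lymphocytes, and they are named after their values were seen.

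The class II chain genes rose together. All 3 tested A and E chain genes were called: H2-Aa and H2-Ab1, which encode the α and β chains of the A molecule, and H2-Eb1, the β chain of the E molecule. The 150 bases before the RefSeq start sites of H2-Aa (chr17:34287824-34287973, minus strand) and H2-Eb1 (chr17:34305717-34305866, plus strand) are shown from 5′ to 3′ of each gene (RefSeq, GRCm38.p6), because class II promoters are known for a short upstream module that ends in a CCAAT box read by NF-Y and holds, before it, a cAMP response element read by Creb1. Capitals mark CCAAT, and also TGACG, on either strand.
H2-Aa: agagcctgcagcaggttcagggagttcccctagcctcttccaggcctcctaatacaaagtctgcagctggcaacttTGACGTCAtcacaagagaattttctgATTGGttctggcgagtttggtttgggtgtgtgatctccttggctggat
H2-Eb1: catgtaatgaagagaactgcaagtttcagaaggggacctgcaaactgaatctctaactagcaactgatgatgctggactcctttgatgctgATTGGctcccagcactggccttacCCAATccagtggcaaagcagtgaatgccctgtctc
The H2-Aa sequence holds ATTGG, the reverse complement of CCAAT, 48 bases before the start and TGACG 74 bases before it. The H2-Eb1 sequence holds ATTGG at 59 and CCAAT at 35 bases before the start, and no TGACG. Of the 10 class II members with a promoter window (250 bases before to 50 after the start), 8 hold CCAAT and 2 hold TGACG, against 41.1% and 23% of the windows of all 27025 genes. A match is a run of letters and was not tested for use.

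H2-Aa (chr17:34282744-34287823) stood at 59.8, 68.7, 70.9 and 37.3 CPM in controls 1 to 4 and at 94.4, 152, 123 and 139.9 CPM in the libraries β-tetO-NICD 1, 2, 4 and 5. The groups did not overlap, control 4 was the lowest library and β-tetO-NICD 1 the lowest of its group (log2 fold change 1.11 ± 0.23 SE, adjusted p = 0.0225). H2-Ab1 (chr17:34257689-34269419) gave 46.0, 42.2, 54.0 and 20.6 CPM in the controls and 70.0, 140.2, 102 and 143 CPM with NICD (log2 fold change 1.48 ± 0.32 SE, adjusted p = 0.0251). H2-Eb1 (chr17:34305867-34316674) gave 53.4, 50.9, 67.7 and 24.2 CPM and 76.0, 149, 106 and 199.5 CPM (log2 fold change 1.43 ± 0.36 SE, adjusted p = 0.0434). The 3 genes ordered the libraries almost alike: control 3 was the highest control and control 4 the lowest in each, and the gap between the highest control and the lowest β-tetO-NICD library was narrow for H2-Eb1. Group means moved from 40.7 ± 14.3 to 114 ± 34.6 CPM for H2-Ab1 (SD, n = 4) and from 59.2 ± 15.4 to 127 ± 25.1 CPM for H2-Aa (SD, n = 4). These chains share little sequence with other genes: at most 1.06% of the 31-base words of their transcripts also occur in another gene. The second E chain, H2-Eb2, had at most 7 counts in any library and was not tested, and H2-Ea-ps, the E α chain gene that is a pseudogene in C57BL/6, had 0 counts in all 8.

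Cd74, the invariant chain that fills the groove of new class II molecules, was the most abundant class II member per length of transcript and rose with the chains. In both groups it was first by that measure, at 85.5 and 227 CPM per kilobase. Its level was 136, 127, 157 and 62.5 CPM in controls 1 to 4 and 204, 368, 294 and 415 CPM in the libraries β-tetO-NICD 1, 2, 4 and 5. Every β-tetO-NICD library exceeded every control, and control 4 again stood lowest (log2 fold change 1.41 ± 0.31 SE, adjusted p = 0.0268). The ratio of H2-Ab1 to Cd74, a measure free of the library total, ran from 0.330 to 0.345 in controls and from 0.342 to 0.381 with NICD, with overlap. So chain and chaperone kept a nearly fixed proportion across all 8 libraries while the level of both differed between groups.

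The peptide editors rose too. H2-DM, a dimer of H2-DMa with a β chain, swaps peptides in the class II groove, and H2-O, a dimer of H2-Oa and H2-Ob known mainly from B cells, restrains it. H2-Oa and H2-DMb2 are the called class II members with the fewest counts. H2-Oa had 10, 6, 6 and 7 counts in controls 1 to 4 and 23, 31, 35 and 29 in the libraries β-tetO-NICD 1, 2, 4 and 5, so it entered the test only through the group in which it is high. Its levels were 0.461, 0.253, 0.237 and 0.284 CPM in controls 1 to 4 and 1.09, 1.35, 1.16 and 1.46 CPM in the libraries β-tetO-NICD 1, 2, 4 and 5, with the lowest β-tetO-NICD library above the highest control by more than the whole spread of the controls (log2 fold change 2.03 ± 0.33 SE, adjusted p = 0.00793). H2-DMb2 varied little among controls, at 0.415, 0.464, 0.474 and 0.406 CPM, and stood at 1.28, 1.96, 1.16 and 1.71 CPM with NICD (log2 fold change 1.78 ± 0.30 SE, adjusted p = 0.00942). H2-DMb1 gave 2.63, 3.29, 4.19 and 2.15 CPM against 5.08, 10.21, 8.00 and 10.12 CPM (log2 fold change 1.44 ± 0.29 SE, adjusted p = 0.0204). In these 3 genes no library of one group reached the other. H2-DMa gave 6.64, 6.84, 8.54 and 5.07 CPM and 8.69, 16.9, 12.3 and 13.7 CPM, where β-tetO-NICD 1 came within a small step of control 3 (log2 fold change 0.93 ± 0.24 SE, adjusted p = 0.0484). H2-Ob, the partner of H2-Oa, had 0.527 to 0.971 CPM in controls and 0.960 to 2.21 CPM with NICD, the groups overlapped and it was not called (log2 fold change 1.02 ± 0.36 SE, adjusted p = 0.103). Of the 31-base words of H2-DMb1, 31.4% occur in H2-DMb2, and 29.7% of those of H2-DMb2 occur in H2-DMb1, so the split of counts between them is uncertain, and H2-Oa shares 18.3% with BC051537.

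The endosomal enzymes Ctss and Ifi30 and the activator Ciita were not called with all 8 libraries and no covariate or offset. Cathepsin S, from Ctss, read 39.7, 40.3, 63.8 and 46.2 CPM in controls 1 to 4 and 49.0, 89.0, 79.0 and 70.1 CPM in the libraries β-tetO-NICD 1, 2, 4 and 5, with overlap through control 3 and β-tetO-NICD 1 (log2 fold change 0.59 ± 0.22 SE, adjusted p = 0.113). Ifi30, a thiol reductase that opens disulfide bonds in endosomal antigens, read 23, 25.3, 31.2 and 26.8 CPM and 20.1, 23.5, 23.6 and 38.2 CPM, the groups overlapping throughout (log2 fold change -0.01 ± 0.21 SE, adjusted p = 0.971). Ciita, the activator on which class II transcription depends, read 2.30, 2.49, 1.58 and 0.852 CPM in controls and 2.61, 1.66, 1.69 and 0.604 CPM with NICD. Both extremes of Ciita lay in the β-tetO-NICD group, library 1 highest and library 5 lowest, and library 5 was also the highest for H2-Ab1, H2-Eb1 and Cd74 (log2 fold change -0.13 ± 0.46 SE, adjusted p = 0.856). Ciita had only 12 counts in library 5. Its longest transcript has 6007 bases, against 1212, 1669 and 1410 for H2-Ab1, H2-Eb1 and Cd74. The correlation of level with transcript length was -0.515 in library 5 and 0.446 in library 1, and its part in this contrast was not tested. Ctss passed without β-tetO-NICD 1 (log2 fold change 0.74, adjusted p = 0.0174), and without both β-tetO-NICD 1 and control 3 (0.91, adjusted p = 0.00306). Ifi30 passed as lower once each library's length trend was removed as an offset (-0.58, adjusted p = 0.0244), while its sign and that of Ciita changed under other settings, so no direction is read from them.

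**Figure D2:**
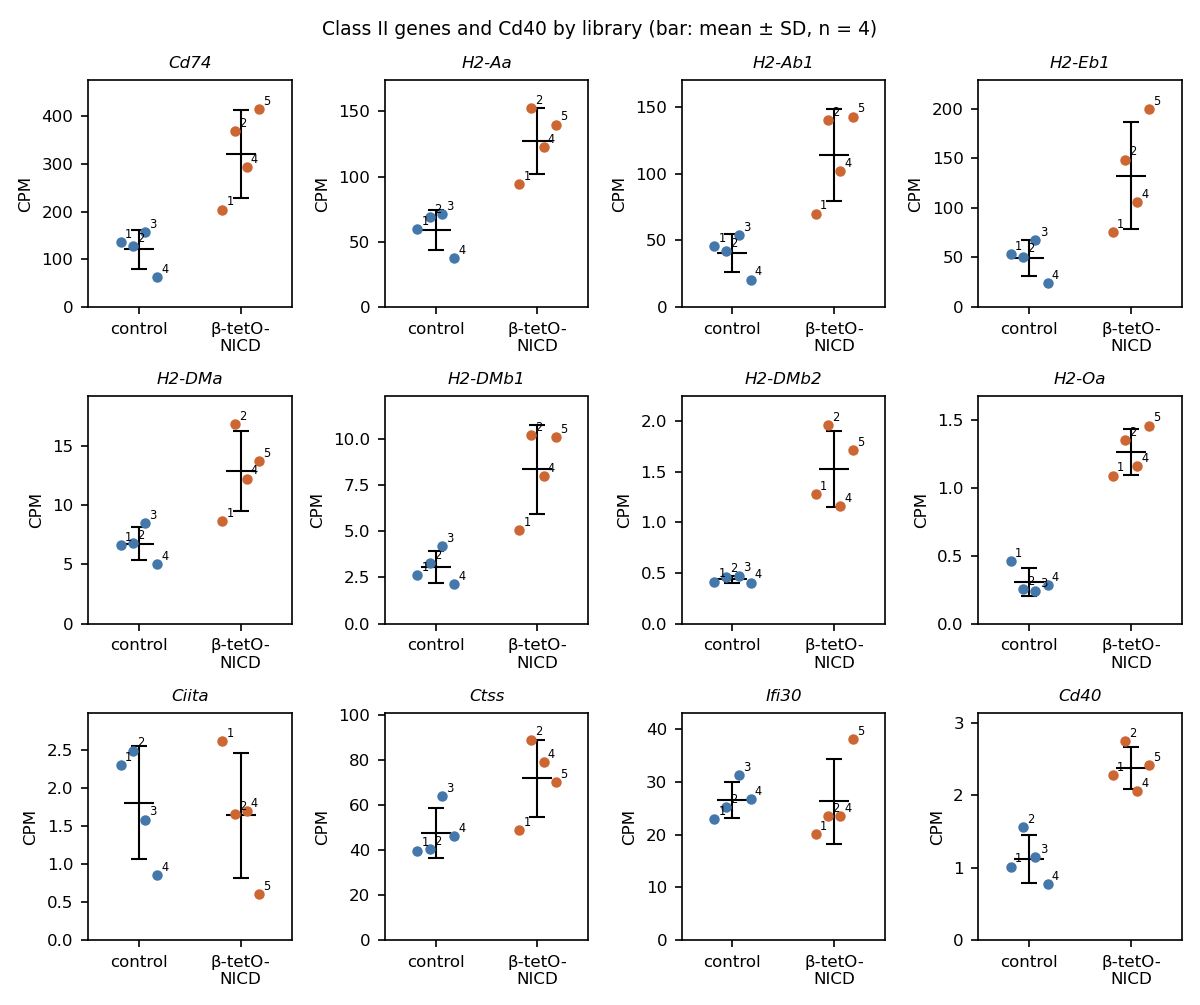
Levels (CPM, linear axis from 0) of 11 class II members and Cd40 in each library, numbered, with the group mean and bars of 1 SD (n = 4 per group). The upper 8 panels are the called class II genes, in which all β-tetO-NICD points lie above all controls, whereas Ciita, Ctss and Ifi30 overlap.

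Among class I heavy chains, the genes called were not the most abundant ones. The sequences before the start sites of H2-Q4 (chr17:35379467-35379616, plus strand) and H2-Q6 (chr17:35424700-35424849, plus strand), which rose, are set side by side with those of the abundant classical gene H2-K1 (chr17:34000334-34000483, minus strand), B2m (chr2:122147537-122147686, plus strand), H2-T23 (chr17:36032702-36032851, minus strand) and Psmb9 (chr17:34187331-34187480, minus strand), which missed the threshold (RefSeq, GRCm38.p6, 150 bases each). They show the letters that the called and uncalled genes have in common. Capitals mark CCAAT boxes, the letters TGACG, and the core of an interferon-stimulated response element (ISRE), which is GAAA, any 2 bases and again GAAA, all searched on both strands.
H2-Q4: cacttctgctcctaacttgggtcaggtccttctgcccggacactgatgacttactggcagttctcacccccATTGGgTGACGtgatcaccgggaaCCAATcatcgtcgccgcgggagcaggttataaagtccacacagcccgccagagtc
H2-Q6: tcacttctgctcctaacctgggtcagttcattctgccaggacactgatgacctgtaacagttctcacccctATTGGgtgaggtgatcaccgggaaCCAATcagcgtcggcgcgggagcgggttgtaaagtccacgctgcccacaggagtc
H2-K1: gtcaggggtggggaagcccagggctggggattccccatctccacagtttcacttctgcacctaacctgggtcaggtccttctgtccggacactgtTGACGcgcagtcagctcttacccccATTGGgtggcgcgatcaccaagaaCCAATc
B2m: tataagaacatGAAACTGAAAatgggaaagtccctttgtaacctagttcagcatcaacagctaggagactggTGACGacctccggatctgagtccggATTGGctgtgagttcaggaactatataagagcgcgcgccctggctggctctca
H2-T23: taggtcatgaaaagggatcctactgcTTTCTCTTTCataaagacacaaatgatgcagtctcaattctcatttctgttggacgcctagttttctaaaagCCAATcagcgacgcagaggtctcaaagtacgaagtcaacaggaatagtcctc
Psmb9: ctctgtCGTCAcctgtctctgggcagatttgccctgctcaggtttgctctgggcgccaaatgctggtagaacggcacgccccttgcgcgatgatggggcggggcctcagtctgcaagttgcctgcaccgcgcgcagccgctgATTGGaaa
H2-Q4 and H2-Q6 both hold ATTGG at 79 and CCAAT at 55 bases before the start, and H2-K1 holds the same pair at 30 and 6 bases before the start shown. RefSeq gives H2-K1 a second start, from which the pair lies 16 bases before and 8 after. The ISRE core lies 139 bases before the start of B2m and, as its reverse complement, 124 bases before that of H2-T23. Across the 44 members with a window, CCAAT was found in 32 (23 of 31 class I), TGACG in 17, the ISRE core in 6, a site of NF-kB (GGG, any 2 bases, then TTTCC) in 2 and the STAT site TTCCNGGAA in 1, against 41.1%, 23%, 3.99%, 1.89% and 1.35% of all 27025 genes. The 6 members with the ISRE core were B2m, Ctss, Erap1, H2-T22, H2-T23 and Psme1: 0 of 13 called members with a window, and 6 of 18 tested but not called. GTGGGAA, the letters that the Notch partner Rbpj reads, was found in 3 members (Cd80, H2-M9 and H2-Ob; 7.25% of all genes), of which Cd80 and H2-M9 were too low to test and H2-Ob was tested and not called. In all, 9 patterns were searched, 3 of them looser or longer spellings of those given.

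H2-K1 and H2-D1 encode the classical heavy chains, by which T cells recognise infected or altered cells, and were the highest heavy chains in both groups (174 and 145 CPM per kilobase in controls). H2-K1 read 333, 312, 406 and 255 CPM in controls 1 to 4 and 358, 589, 440.5 and 619 CPM in the libraries β-tetO-NICD 1, 2, 4 and 5, and β-tetO-NICD 1 fell within the controls (log2 fold change 0.62 ± 0.22 SE, adjusted p = 0.106). H2-D1 read 319, 292, 355 and 249.1 CPM and 360.1, 589.6, 440.4 and 434 CPM, with no overlap but little room between control 3 and β-tetO-NICD 1 (log2 fold change 0.59 ± 0.19 SE, adjusted p = 0.0886). Neither passed the threshold.

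The called heavy chains were nonclassical. In the Q region, 3 of 7 tested genes rose. H2-Q6 read 3.32, 3.63, 5.34 and 2.07 CPM in controls 1 to 4 and 7.36, 20.8, 12.2 and 18.1 CPM in the libraries β-tetO-NICD 1, 2, 4 and 5, the largest class I estimate (log2 fold change 2.02 ± 0.37 SE, adjusted p = 0.0137). Its neighbour H2-Q7, which encodes a form of the Qa-2 antigen, read 3.32, 4.22, 4.78 and 3.37 CPM and 6.27, 12.2, 9.89 and 13.2 CPM (log2 fold change 1.40 ± 0.26 SE, adjusted p = 0.0142). H2-Q4 was the most abundant of the 3, at 41.7, 40.0, 52.5 and 33.9 CPM and 62.1, 109, 82.9 and 87.2 CPM (log2 fold change 1.02 ± 0.20 SE, adjusted p = 0.0176). In each of them β-tetO-NICD 1 was the lowest of its group and still above every control. H2-Q10, secreted by liver, and H2-Q5 had negative estimates (-0.86 and -0.31) and were not called. H2-Q2 and H2-Q1 had positive estimates and were not called either. H2-Q2 read 51.6 to 69.0 CPM and 76.2 to 109.7 CPM without overlap (log2 fold change 0.59 ± 0.16 SE, adjusted p = 0.0567). H2-Q1 overlapped (log2 fold change 0.45 ± 0.38 SE, adjusted p = 0.415). In the T region, H2-T10, a ligand of γδ T cells, was the 1 of 4 called, at 0.783, 1.31, 1.23 and 0.568 CPM and 1.99, 3.88, 3.09 and 3.73 CPM (log2 fold change 1.70 ± 0.35 SE, adjusted p = 0.0212). H2-T23, which encodes Qa-1, an inhibitory ligand of natural killer cells, read 64.0 to 109 CPM and 101 to 195 CPM with overlap (log2 fold change 0.78 ± 0.23 SE, adjusted p = 0.0712). H2-M2 stood at 0.830, 0.717, 0.712 and 0.689 CPM in controls, a narrow range, and at 1.76, 1.14, 3.12 and 1.76 CPM with NICD, where its highest library was β-tetO-NICD 4 and its lowest β-tetO-NICD 2 (log2 fold change 1.40 ± 0.35 SE, adjusted p = 0.0431).

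Reads of these heavy chains are hard to assign. Of the 31-base words in H2-Q6, H2-Q4, H2-Q7 and H2-T10 transcripts, 51.8%, 53.0%, 39.2% and 64.2% occur in at least 1 other gene. Of those in H2-Q6, 24.6% occur in H2-Q4, and of those in H2-T10, 47.6% occur in H2-T22. For H2-K1 and H2-D1 the shared part is 22.8% and 26.9%. H2-M2 shares 3.20%. The split of counts among these genes is therefore uncertain. The mice were of mixed strain and their H2 haplotypes were not determined here, and the part of haplotype in these values was not tested.

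B2m, the light chain of every class I molecule, shares no 31-base word with another gene. It read 61.9, 84.3, 98.2 and 70.0 CPM in controls 1 to 4 and 91.1, 202, 137 and 242 CPM in the libraries β-tetO-NICD 1, 2, 4 and 5. Libraries 2, 4 and 5 of the β-tetO-NICD group lay above all controls and library 1 lay below control 3 (log2 fold change 1.09 ± 0.29 SE, adjusted p = 0.0528), so B2m narrowly missed the threshold, at a mean of 78.6 ± 15.99 against 168 ± 67.0 CPM (SD, n = 4). Nlrc5, the class I activator, was rare, at 1.20, 1.05, 0.830 and 0.771 CPM and 1.95, 1.40, 1.29 and 1.26 CPM. The groups did not overlap, β-tetO-NICD 1 being highest, and the estimate did not pass (log2 fold change 0.61 ± 0.29 SE, adjusted p = 0.176).

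Both chains of the peptide transporter rose. Tap1 (chr17:34187553-34197225) read 15.8, 14.4, 16.5 and 12.4 CPM in controls 1 to 4 and 21.0, 37.4, 29.4 and 26.8 CPM in the libraries β-tetO-NICD 1, 2, 4 and 5, with no overlap (log2 fold change 0.96 ± 0.19 SE, adjusted p = 0.0195). Tap2 (chr17:34203527-34216321) read 53.1, 56.8, 63.7 and 50.3 CPM and 69.0, 139.5, 123 and 128 CPM, again with no overlap (log2 fold change 1.04 ± 0.22 SE, adjusted p = 0.0224). The 2 estimates lay within 1 SE of each other. Tap2 shares 14.3% of its 31-base words with other genes and Tap1 4.09%. Tapasin was not called: Tapbp read 160.1, 161, 168 and 150.2 CPM and 159.6, 252, 194 and 247 CPM, where β-tetO-NICD 1 sat among the controls (log2 fold change 0.41 ± 0.17 SE, adjusted p = 0.138). Its relative Tapbpl, which edits peptides outside the loading complex, was not called either (log2 fold change -0.11 ± 0.17 SE, adjusted p = 0.652). Erap1, the aminopeptidase that trims peptides to length, had a negative estimate too and was not called, at 73.8, 84.2, 67.2 and 88.0 CPM and 73.1, 55.8, 56.9 and 43.9 CPM, with β-tetO-NICD 1 within the controls and the rest below them (log2 fold change -0.45 ± 0.18 SE, adjusted p = 0.126).

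The immunoproteasome replaces the 3 catalytic subunits of the standard proteasome with Psmb8, Psmb9 and Psmb10. Psmb8 (chr17:34197721-34201454) read 17.6, 19.7, 28.5 and 20.7 CPM in controls 1 to 4 and 30.96, 82.7, 51.9 and 84.2 CPM in the libraries β-tetO-NICD 1, 2, 4 and 5, with no overlap (log2 fold change 1.53 ± 0.31 SE, adjusted p = 0.0198). Psmb10 (chr8:105935735-105938444) read 19.2, 19.1, 23.8 and 18.1 CPM and 26.1, 47.9, 31.8 and 61.9 CPM, with no overlap (log2 fold change 1.06 ± 0.26 SE, adjusted p = 0.0409). Psmb9, whose start site faces away from that of Tap1 with 225 bases between them, read 11.8, 12.6, 14.2 and 11.96 CPM and 14.3, 32.4, 18.8 and 32.0 CPM: the groups stood apart narrowly at β-tetO-NICD 1, and the gene missed the threshold (log2 fold change 0.95 ± 0.26 SE, adjusted p = 0.0566). In all 3, libraries 2 and 5 were the highest of the β-tetO-NICD group and library 1 the lowest. Psme1 and Psme2, the subunits of the PA28 cap that opens the proteasome, had estimates of the same size and were not called, with 44.8, 41.5, 59.5 and 45.8 CPM and 55.9, 100.1, 72.4 and 121 CPM for Psme1 (log2 fold change 0.86 ± 0.24 SE, adjusted p = 0.0584).

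The standard subunits that these replace were read beside them. Psmb7, the counterpart of Psmb10, rose (log2 fold change 1.28, adjusted p = 0.0293), and Psmb6 and Psmb5, the counterparts of Psmb9 and Psmb8, had estimates of 0.82 and 0.57 and were not called. Per kilobase of transcript, the ratio of Psmb8 to Psmb5 was 0.216 to 0.449 in controls and 0.413 to 0.658 with NICD, that of Psmb9 to Psmb6 0.0472 to 0.0644 and 0.0531 to 0.0692, and that of Psmb10 to Psmb7 0.584 to 0.702 and 0.494 to 0.631. All 3 ratios overlapped between the groups. For Psmb8 to Psmb5 the overlap rests on control 4 (0.449): controls 1 to 3 lay at 0.216, 0.262 and 0.2601, below every β-tetO-NICD library. For Psmb10 to Psmb7 it rests on β-tetO-NICD 1 (0.631), the other 3 of its group lying at 0.494 to 0.573, below every control, and for Psmb9 to Psmb6 the libraries were interleaved.

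**Figure D3:**
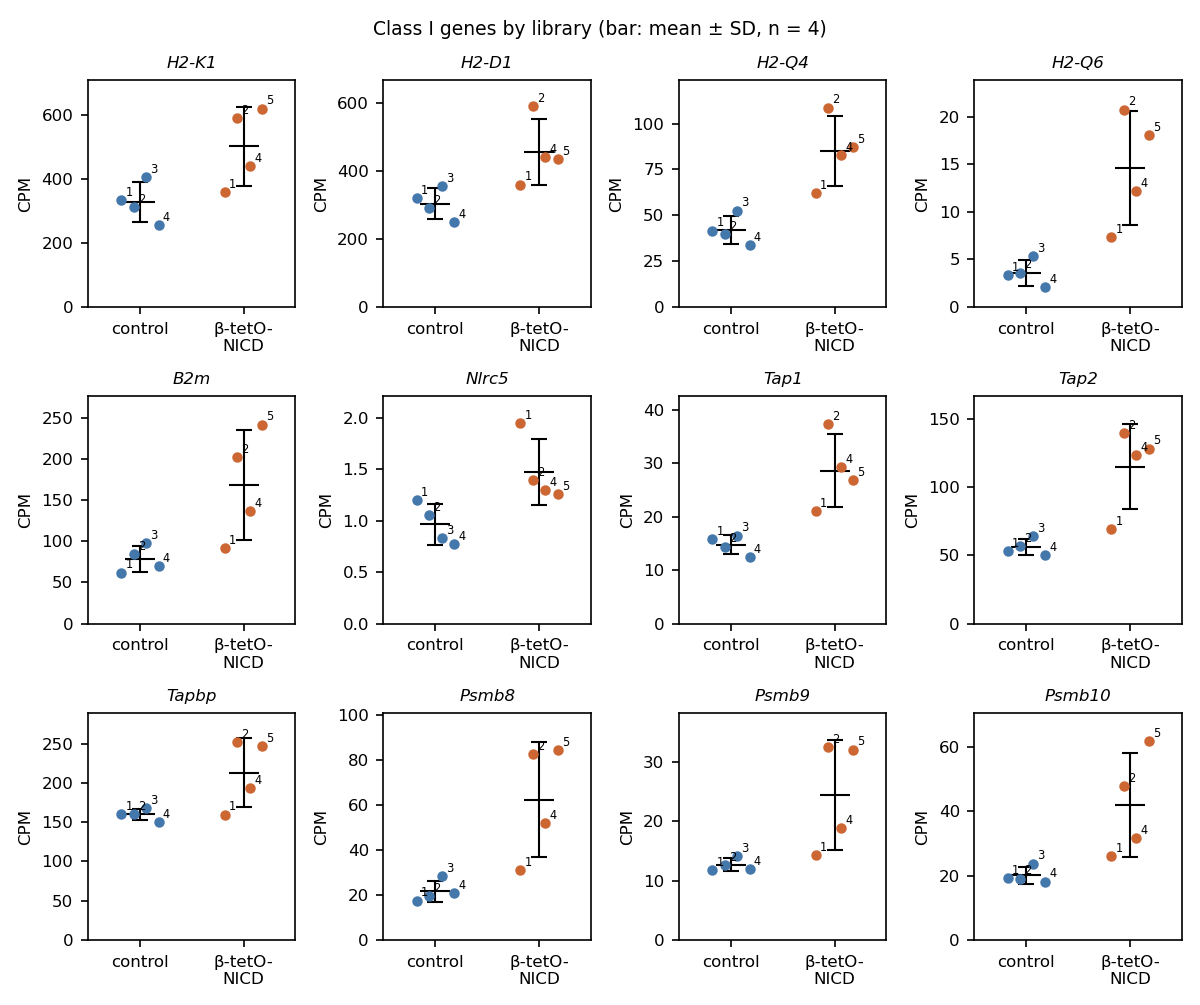
Levels (CPM, linear axis from 0) of 12 class I members in each library, numbered, with the group mean and bars of 1 SD (n = 4 per group). β-tetO-NICD 1 is the lowest of its group in every panel but Nlrc5, and in H2-K1, B2m and Tapbp it falls within the controls.

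The costimulatory ligands, which tell a T cell whether to respond to the peptide it sees, gave 0 calls among 3 tested in edgeR's quasi-likelihood test, 1 at an unadjusted p under 0.05, and 1 each in DESeq2 and limma-voom. That 1 was Cd40, the receptor through which helper T cells license an antigen-presenting cell. Cd40 read 1.01, 1.56, 1.15 and 0.771 CPM in controls 1 to 4 and 2.28, 2.75, 2.06 and 2.42 CPM in the libraries β-tetO-NICD 1, 2, 4 and 5. Its groups did not overlap and were evenly spread, with the highest control 2 and the lowest β-tetO-NICD 4 (log2 fold change 1.08 ± 0.29 SE, adjusted p = 0.0526). Cd86, a ligand of Cd28, read 1.797, 1.27, 1.58 and 1.74 CPM and 2.18, 1.79, 2.42 and 2.11 CPM with overlap (log2 fold change 0.41 ± 0.24 SE, adjusted p = 0.257). Cd80, the other Cd28 ligand, had 2 to 6 counts in every library and was not tested. Cd274, which encodes the checkpoint ligand PD-L1 and in islets is known to answer interferon, read 18.4, 19.5, 16.7 and 23.4 CPM and 22.5, 15.9, 13.7 and 13.6 CPM, with β-tetO-NICD 1 second only to control 4 and the other 3 below all controls (log2 fold change -0.25 ± 0.20 SE, adjusted p = 0.391).

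The 20 untested members were all near 0. No count was found for 8 of them in any library, 7 more had at most 3 counts in every library, and the highest count of any was 7 (H2-Eb2 in β-tetO-NICD 1). They were mostly M region genes, several of them known from the vomeronasal organ, and pseudogenes. H2-Ke6, the member outside both classes, was not called and shares 76.1% of its 31-base words with Gm20427 (log2 fold change 0.48 ± 0.27 SE, adjusted p = 0.243).

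**Figure D4:**
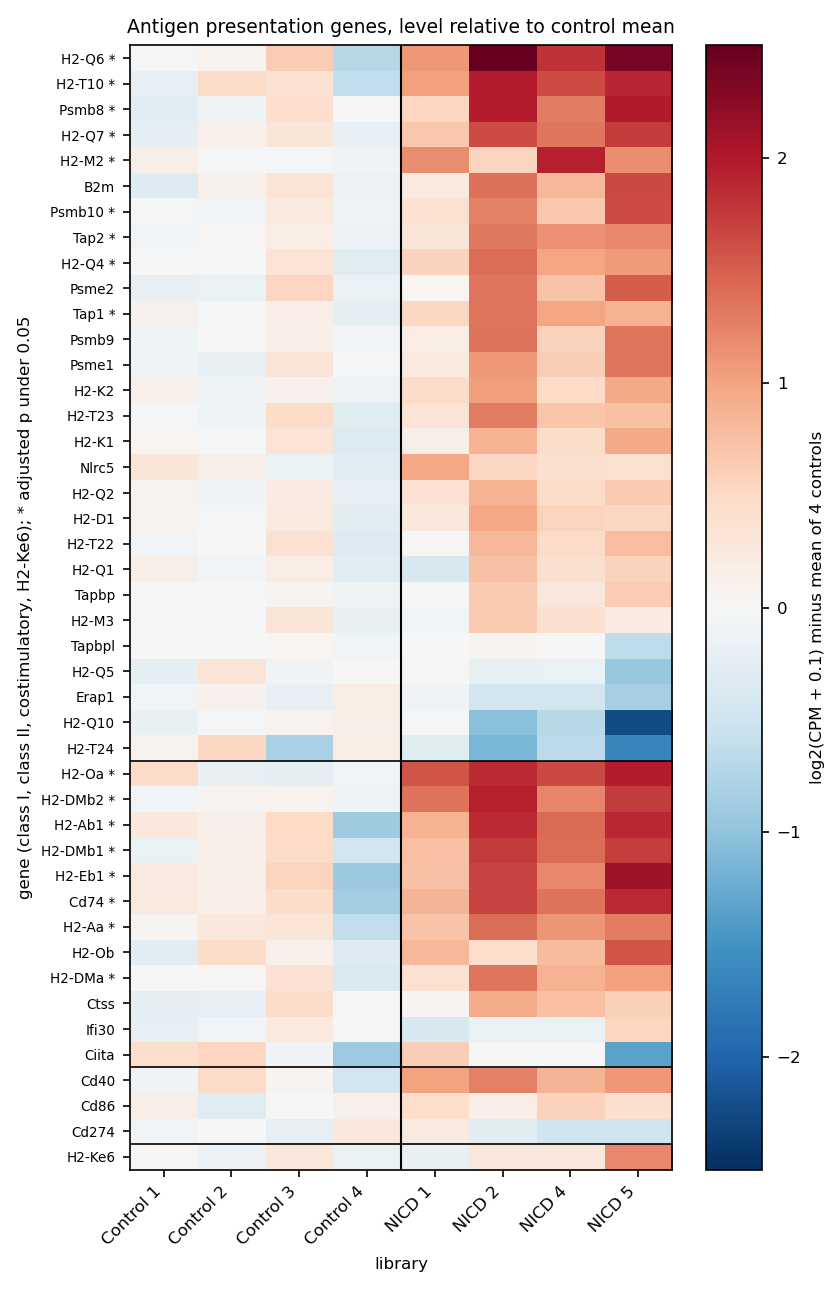
Level of each of the 44 tested members in each library as log2(CPM + 0.1) minus the mean of the 4 controls, ordered within class by estimated fold change, with an asterisk at adjusted p under 0.05. Within β-tetO-NICD, libraries 2 and 5 are darkest and library 1 palest for most class I genes, while H2-Oa, H2-DMb2 and Cd40 are raised in all 4.

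Genes that act on the pathway from outside were read from 7 lists of 36 genes, of which 34 were tested. Interferon γ signalling gave 1 higher of 11, with 7 positive and 4 negative estimates and 3 at an unadjusted p under 0.05 (Irf8, Irf9 and Jak1). Irf9 had a log2 fold change of 0.42 with no overlap and was not called. The called gene was Irf8, a factor of macrophages and dendritic cells, at 2.86, 3.54, 2.85 and 2.92 CPM and 4.23, 8.86, 9.22 and 8.41 CPM, with no overlap (log2 fold change 1.34 ± 0.27 SE, adjusted p = 0.0193). Irf1, which carries the interferon signal to these promoters, was not called (log2 fold change 0.28, adjusted p = 0.186), and the receptor kinase Jak1 had a negative estimate with no overlap and did not pass (log2 fold change -0.94 ± 0.26 SE, adjusted p = 0.0597). The endosomal proteases gave 1 higher of 4, Lgmn, a protease that starts the cutting of the invariant chain (log2 fold change 1.27 ± 0.20 SE, adjusted p = 0.00564). The factors that sit on class I and II promoters (Rfx5, Rfxank, Rfxap, Creb1 and the 3 NF-Y subunits) gave 0 of 7 in edgeR, and 5 of the 7 estimates were negative. At an unadjusted p under 0.05, which 31.6% of all tested genes had, there were 3, in both directions: Rfx5 (-0.60 on the log2 scale), Creb1 (-0.46) and Nfyb (0.40). The loading chaperones Calr, Canx, Pdia3 and Hspa5 gave 0 of 4, the other costimulatory ligands 0 of 3 and the MHC-like presenters Mr1 and Cd1d1 0 of 2, each with 1 gene at that unadjusted p in edgeR, which were Canx (-0.42), Tnfsf9 (0.87) and Mr1 (-0.52). In all, 3 of these 34 genes were called, the last being Psmb7 of the standard proteasome, a share near the 6.76% of all tested genes.

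Markers of leukocytes, in which class II is usually found, were read in the same libraries. The summed level of 4 pan-leukocyte genes was 25.3 to 32.6 CPM in controls and 35.3 to 48.4 CPM with NICD, and that of 12 macrophage genes 169 to 222 and 239 to 352 CPM, without overlap in either list. Without C1qa the macrophage sum overlapped, at 100.2 to 139.7 and 127.9 to 171 CPM, and the median log2 fold change of the 12 macrophage genes was 0.08. Of these 16 genes, 2 were called, both higher: Coro1a (log2 fold change 1.11 ± 0.25 SE, adjusted p = 0.0320) and the complement gene C1qa (log2 fold change 0.95 ± 0.21 SE, adjusted p = 0.0273). Estimates were positive for 4 of the 4 pan-leukocyte and 8 of the 12 macrophage genes. On the log2 scale the uncalled genes ran from Itgam (-1.15) to Aif1 (1.04). Higher estimates among them were also those of C1qb (0.75), Fcgr1 (0.73) and Laptm5 (0.53, without overlap), and lower ones those of Ptprc (0.32), Cd68 (0.0009), Csf1r (0.09) and Adgre1 (-0.38). The 6 dendritic cell genes summed to 9.57 to 17.8 and 15.9 to 18.02 CPM with overlap, and 0 of the 5 tested were called. Groups overlapped for Flt3 (0.82 on the log2 scale), Itgax (0.48), Clec9a (0.16) and Zbtb46 (-0.08). Clec9a was lowest in β-tetO-NICD 1 (0.807 CPM). In 2 rare genes of the list the groups did not overlap. Xcr1, at 0.0922 to 0.446 and 0.475 to 1.19 CPM, was not called (log2 fold change 1.92 ± 0.51 SE, adjusted p = 0.0540). Xcr1 had 2 to 11 counts in controls and 10 to 36 with NICD, so it met the count filter only through the β-tetO-NICD group. Ccr7, too low to test, was counted 0 or 1 times in controls and 7 to 20 times with NICD. The 7 T and NK cell genes summed to 1.29 to 2.45 and 2.75 to 6.19 CPM without overlap. The 3 tested ones, Cd4 (1.02 on the log2 scale), Cd3d (0.38) and Cd8a (-0.004), all overlapped. They gave 0 calls and 0 at an unadjusted p under 0.05 in edgeR. Cd3e, too low to test, overlapped as well. Cd3g, Nkg7 and Ncr1 of that list, all too low to test, were higher in CPM in every β-tetO-NICD library than in any control. They had 0 to 5, 0 to 3 and 0 to 1 counts in controls and 6 to 34, 3 to 25 and 1 to 7 with NICD. The lowest counts of Nkg7 and Ncr1 with NICD thus equalled the highest in controls. The 4 B cell genes summed to 11.1 to 22.7 and 20.3 to 29.7 CPM with overlap, and Ms4a1, too low to test, had 65 counts in β-tetO-NICD 1 and 2 to 6 in every other library. Set against the sum of the pan-leukocyte and macrophage genes, Cd74 was 0.252 to 0.699 in controls and 0.744 to 1.04 with NICD, and H2-Ab1 0.0832 to 0.236 and 0.255 to 0.387, so both genes were also higher relative to these markers in every β-tetO-NICD library than in any control. With the mean log2 level of the same markers as a covariate, chosen after seeing the data, 0 members of either class were called in edgeR, 13 class I and 8 class II members had an unadjusted p under 0.05, all higher, beside 13.3% of all tested genes, and the medians were 0.72 and 1.26. RNA of acinar and islet cell markers was read as well, and cell numbers were not measured in these libraries. The 12 acinar genes summed to 64480 to 127100 CPM in controls and 53880 to 181900 CPM with NICD, highest in β-tetO-NICD 1, with 0 calls, 0 at an unadjusted p under 0.05 in edgeR and 12 of 12 estimates positive (median 0.44 on the log2 scale). The 4 α cell markers summed to 11380 to 41200 CPM in controls and 53470 to 67130 CPM with NICD, nearly all of it glucagon RNA, and without Gcg to 70.4 to 108.3 and 104.8 to 163.7 CPM with overlap. The 2 δ cell markers summed to 2278 to 6247 and 4782 to 13750 CPM, where Hhex was called higher (log2 fold change 1.01 ± 0.25 SE, adjusted p = 0.0436) and Sst was not (log2 fold change 1.46 ± 0.41 SE, adjusted p = 0.0619), and β cell markers to 156600 to 197300 and 71960 to 171800 CPM. For β-tetO-NICD mice the paper reports islet macrophages and endothelial cells unchanged in level and distribution. It also reports an unchanged ratio of β to α cells, against mice without Cre. Neither was counted in these libraries. In which cells the members rose was not measured, and the part of cell numbers in these results was not tested.

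Because β-tetO-NICD 1 resembles controls 1, 2 and 4 in its length trend, and control 3 leans to the same side as β-tetO-NICD 2, 4 and 5, the members were also compared inside each of these sets. The first set is close in that trend (correlation 0.446 against 0.418 to 0.497) and the second is not (-0.174 in control 3 against -0.360 to -0.521), so in the second set short transcripts still read higher with NICD. Their longest transcripts are shorter than usual, with a median of 2267 bases for class I and 1446.5 for class II members against 3359 over the 14659 tested genes with a length. Class I members were higher with NICD in both sets in 22 of 28 (78.6%) and class II members in 10 of 12 (83.3%), beside 33.7% of all tested genes. The median difference on the log2(CPM + 0.1) scale was 0.35 and 0.63 for class I and 0.89 and 1.04 for class II, beside -0.0015 and -0.0052 for all genes. Each set has only 1 library on one side, so no test was made. With the length correlation of each library as a covariate, 2 class I members (H2-Q4 and H2-Q6) and 1 class II member (H2-Oa) were called, and with each library's length trend removed as an offset, 11 class I and 9 class II members were, 8 of the latter higher.

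**Figure D5:**
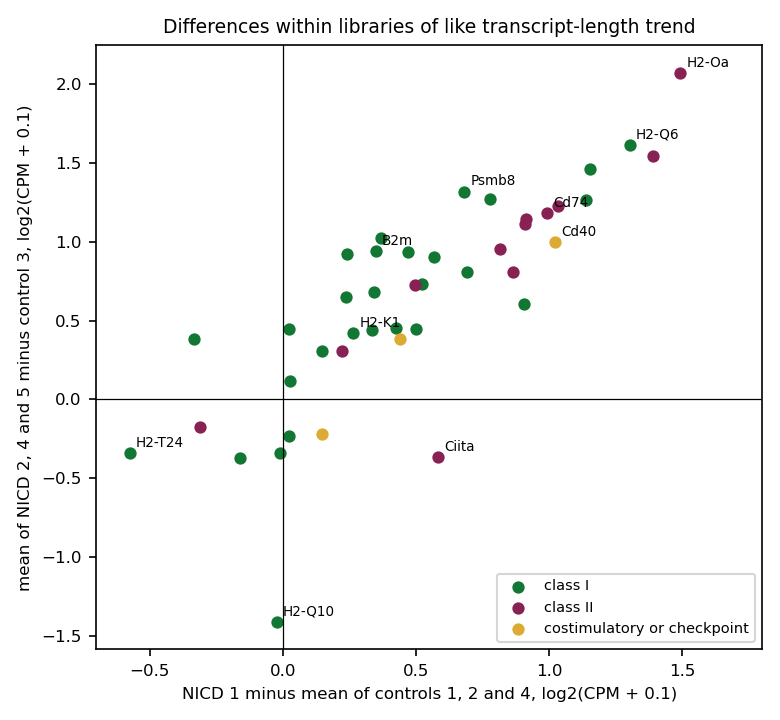
Each tested class I, class II or costimulatory member by its difference in log2(CPM + 0.1) between β-tetO-NICD 1 and the mean of controls 1, 2 and 4 (horizontal axis) and between the mean of β-tetO-NICD 2, 4 and 5 and control 3 (vertical axis). Points in the upper right corner were higher with NICD in both sets, 22 of 28 class I and 10 of 12 class II members.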

How the data were processed

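Islet RNA from 4 controls and 4 β-tetO-NICD mice was made into stranded poly(A) libraries by the authors' provider. The authors pseudoaligned reads to the GRCm38 transcriptome with kallisto and deposited whole-number counts per gene symbol, not normalized; the kallisto version and annotation release are not given in the sources used here. A second deposited table, with the authors' own limma comparison (log2 fold changes, mean expression, test statistics and p-values), was not used. Columns were assigned by name. The β-tetO-NICD columns 4 and 5 match that group but no single sample, whose titles run from 1 to 4, and keep their column numbers here.

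Genes that reached 10 counts in 4 or more of the 8 libraries were tested with edgeR 4.0.16 in R 4.3.3 (TMM, quasi-likelihood, no covariate), with Benjamini-Hochberg adjustment over 15082 genes and a threshold of 0.05. The approach was tested on simulated data. Adjusted p-values come from this fit unless another is named. p-values measure the spread between these libraries. Totals of 21701223 to 26413146 counts make counting error small above a few CPM; 3 counts was taken as the floor. Each pair of libraries within a group differed by a chi-square of at least 31.5 per gene, so none were merged. CPM used TMM-normalized library sizes, and per-kilobase levels the longest GENCODE M21 transcript.

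The members and gene lists were chosen with earlier results of these data known. Values in every library are given for each called member and for the defining gene of each step; others are given by ranges and counts. RefSeq promoter windows (GRCm38.p6) were found for 44 of 64 members. Shared 31-base words were counted over GENCODE M21 transcripts. Alternatives were DESeq2 1.42.0, limma-voom 3.58.1, other scaling factors and count filters, the 10 most counted genes removed, an acinar score covariate, 2 length corrections, a replicate block, and each library left out, and, chosen after seeing the data, 2 smaller sets of libraries and a leukocyte score covariate.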

Additional observations from a re-analysis of the deposited data

How the results depend on the processing

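All 17 called members kept a positive estimate in each alternative in which they were tested, and their calls did not: 17 passed with DESeq2, 16 with the length trend offset, 14 with limma-voom and with the acinar covariate, 13 with the replicate block, 3 with the length covariate, 0 with the leukocyte covariate and 0 among the 5 libraries with at most 1 Eif2s3y count. The class I count of 9 became 18 with DESeq2, 2 with the length covariate, 23 (21 higher and 2 lower) without β-tetO-NICD 1 and control 3, 0 in the 5 libraries (9 at an unadjusted p under 0.05 in edgeR) and 0 with the leukocyte covariate. The class II count of 8 became 1 with the length covariate, 0 in the 5 libraries (7 at an unadjusted p under 0.05) and 0 with the leukocyte covariate. The costimulatory count of 0 became 1 with DESeq2, limma-voom, upper-quartile factors, 10 counts in every library and the length trend offset, and 2 without β-tetO-NICD 1 and control 3 (Cd40 higher and Cd274 lower). Over all tested genes the count of 1020 became 2739 with DESeq2, 1556 with the length trend offset, 430 with the length covariate, 6008 without β-tetO-NICD 1 and control 3, 116 in the 5 libraries and 163 with the leukocyte covariate. The cause of these shifts was not tested; the 5-library fit has fewer samples.

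Leaving out 1 library gave 319 (without β-tetO-NICD 2) to 4953 (without β-tetO-NICD 1) calls over all genes, 1 to 23 for class I, 2 to 9 for class II and 0 to 1 for the costimulatory ligands. Of all calls, 62.0% were higher; the share was 48.9% without β-tetO-NICD 1, 49.6% without β-tetO-NICD 1 and control 3 and 73.3% in the 5 libraries.

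The class I median of 0.78 became 0.48 with the length trend offset and 0.37 with the length covariate, and the class II median of 1.26 became 0.83 with the length covariate and 0.88 in the 5 libraries. Estimates that changed sign belonged to members uncalled in the main analysis, and values are given here only for Cd274, Ciita and Ifi30. Some class I estimates changed sign as well. Of 28, 23 were positive in the main analysis, 21 with the length covariate and 22 with the length trend offset. The number was 24 in the 5 libraries, with the leukocyte covariate and without β-tetO-NICD 5. Cd274 became 0.061 with the length covariate. Ciita became 0.13 with the length trend offset, 0.26 with the length covariate, 0.026 in the 5 libraries and 0.73 with the leukocyte covariate, and ran from -0.43 to 0.14 with 1 library left out. Ifi30 became 0.067 with upper-quartile factors, 0.050 with the acinar covariate and 0.18 without β-tetO-NICD 1 and control 3, was called lower with the length trend offset (-0.58, adjusted p = 0.0244), and ran from -0.24 to 0.099 with 1 library left out.

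Only the numbers 1 and 2 are settled in both groups. The deviations of same-numbered libraries correlated across genes at 0.28 and -0.09 and those of crossed numbers at -0.09 and 0.16, so 2 pairs leave it unsettled whether the numbers pair the mice, and they were not used as pairs. With the replicate block, 8 class I and 6 class II members and 969 genes in all were called.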
